A study of Mus musculus with 16 samples.

Results

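The odorant receptor genes of mouse chromosome 19 were followed through 4 groups of sorted olfactory mucosa cells. They were taken as the probe sets that the array design places on chromosome 19 and whose symbol is Olfr followed by a number, with pseudogene symbols and 1 further receptor left out by the rule. This gave 60 receptors, each with 1 probe set, of 19572 probe sets with a gene symbol. The other chromosomes contributed 1019 odorant receptor probe sets, and chromosome 19 held 582 other genes. No measured value entered the choice. All 60 carried a MOR number, an older receptor nomenclature whose first part names a subfamily of related proteins, and they fell into 8 subfamilies.

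Odorant receptors are G protein-coupled receptors of the cilia of olfactory sensory neurons (OSNs), where they signal through Golf, adenylyl cyclase and a cyclic nucleotide-gated channel. Each mature OSN transcribes 1 allele of 1 receptor gene, so the amount of a receptor's mRNA in a tissue follows the number of neurons that chose it as well as the amount per neuron. The genes lie in clusters, and neighbours are often products of local duplication. S100a5, the calcium-binding protein whose gene drives the reporter used here, is transcribed in OSNs in an activity-dependent way.

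All mice carried the S100a5-tauGFP reporter. The 24 mice of both sexes, 7 to 12 weeks old, were kept singly in chambers with clean air at 3.1 L/min for 40 h, and from 26 h they received a 10 s pulse every 20 min of either filtered air (vehicle) or citrus accord at 100 percent. Dissociated mucosa was sorted by fluorescence into GFP+ and GFP- cells, with 3 mice pooled per sample, and the RNA was hybridised to 16 Clariom S arrays. The 4 groups were vehicle GFP+, vehicle GFP-, citrus GFP+ and citrus GFP-, with n = 4 arrays each. Because the reporter follows S100a5, the GFP- gate held OSNs with little reporter together with every other dissociated cell type.

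The gates and the labelled tissue were read first from marker genes. S100a5 was higher in GFP+ arrays, with log2 expression of 16.86 ± 0.16 (SD, n = 4) against 14.94 ± 0.13 in vehicle and 17.43 ± 0.10 against 15.55 ± 0.10 in citrus. Of 15 mature OSN markers, 5 were higher and 0 lower in GFP+ cells in vehicle, with a median difference of 0.34 over the list. The list of sustentacular and gland markers had 4 of 10 lower in vehicle and that of globose basal and cycling cells 4 of 5, with none higher in either. The immature OSN list had 7 of 10 lower in vehicle and 6 of 10 in citrus, and all 11 measured myeloid markers were lower in both, with medians of −9.01 and −9.28. Of all probe sets 9.05 percent were higher and 9.97 percent lower in vehicle, and 7.44 and 10.8 percent in citrus. The summed myeloid signal lay between 9.87 and 11.47 on the vehicle GFP+ arrays and between 19.40 and 20.28 on the vehicle GFP- arrays, on a log2 scale. The GFP- arrays thus carried more signal of other cell types' markers, and its part in the receptor differences was not tested. In sorted bulk samples, fewer cells with a given receptor and less of its RNA per cell cannot be told apart.

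The 60 receptors spanned most of the array's range, and many were close to background. Values are given on the deposited log2 scale, and background was taken as the 95th percentile of the negative-control probes of the same array, which lay between 8.75 and 9.71. Between 9 and 20 of the 60 receptors exceeded it on a given array. On all 4 arrays of at least 1 group 19 receptors did so, on every array 6 did, and on no array 27 did. The 6 measured throughout were Olfr1420 of the MOR266 subfamily, Olfr1423, Olfr1425, Olfr1427 and Olfr1428 of MOR239, and Olfr235 of MOR214. At the other end, Olfr1441, Olfr1465 and Olfr1453 stayed between 2.51 and 4.15 on all arrays. A receptor under background on all 4 arrays of its dimmer group has only a bound there, written as "at least N-fold". That bound sets the brighter group's mean against the dimmer group's mean after each of its arrays is raised to background. It holds for the deposited log2 scale and need not bound a ratio of mRNA amounts.

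The first question was how the reporter gate divides these receptors without odorant. In vehicle, 22 of the 60 receptors were higher in GFP+ cells, 20 were lower and 18 did not pass (limma, Benjamini-Hochberg adjusted over all 19572 probe sets, threshold 0.05). Of all probe sets 19.0 percent passed, 9.05 percent as higher and 9.97 percent as lower. Of the odorant receptors of other chromosomes 39.1 percent were higher and 19.6 percent lower. Over the members, the median difference was −0.12 log2, against 0.59 for the receptors of other chromosomes and 0.11 for all probe sets. In size, 41 of the 60 differed by at least 1 log2 unit, and they ran from −7.72 to 3.37. The split and the sign of the median depend on how the arrays are scaled. Centred on the median over all genes, 25 were higher and 19 lower with a median of 0.16, centred on mature OSN markers 19 and 27 with −0.59, and centred on the receptor median 18 and 25 with −0.59. The same 3 scalings moved the median of all probe sets from 0.11 to 0.39, −0.36 and −0.36, with 7080 higher and 1555 lower, 434 and 5763, and 388 and 3758 among all probe sets. They moved the median of the other odorant receptors from 0.59 to 0.87, 0.12 and 0.12. A scaling shifts the gate difference of every probe set alike, so it cannot test the gap between the member median and this one. Over the 21 members above background on at least 4 arrays the median was −0.87. Under that filter it was 0.87 for the other odorant receptors and 0.16 for all probe sets. A receptor can pass the filter through 1 gate alone, as Olfr1446 and Olfr1447 did through GFP- arrays. The filter thus bears on these medians, and they are a description only. Of the 42 receptors called, both groups lay under background on all arrays for 11 of the higher and 9 of the lower ones, so the direction of these 20 rests on signal that its level alone does not separate from background.

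In citrus accord the same gate gave 23 receptors higher, 21 lower and 16 not passing, where 18.2 percent of all probe sets passed, 7.44 percent higher and 10.8 percent lower. Of the odorant receptors of other chromosomes 42.9 percent were higher and 18.6 percent lower. The member median was 0.10, against 0.76 for the receptors of other chromosomes and 0.13 for all probe sets. Centring on the median of all probe sets gave 26 higher and 22 lower with a median of 0.42, on mature OSN markers 20 and 25 with −0.41, and on the receptor median 19 and 29 with −0.66, while the median of all probe sets moved to 0.46, −0.38 and −0.62. That of the other odorant receptors moved to 1.09, 0.25 and 0.01. The calls of both stimuli overlapped widely: 22 receptors were higher in both and 18 lower in both, and 0 changed direction. The differences of the 2 stimuli share no arrays, but their calls share a spread taken over all 16 arrays and so are not independent. Olfr1451 and Olfr1471 were called lower in vehicle and not in citrus, Olfr1466 higher in citrus and not in vehicle, and Olfr1431, Olfr1436 and Olfr1499 lower in citrus and not in vehicle. The test of the difference between the gate differences passed for none of these 6. Most of these calls were close to the threshold: without 1 pool (vehicle replicate 1, 2 or 4 or citrus replicate 1 or 2) Olfr1451 had an adjusted p of 0.058 to 0.21, and Olfr1471 (vehicle replicate 1, 3 or 4 or citrus replicate 2 or 4) one of 0.057 to 0.21. Olfr1466 lost its call without citrus replicate 1 or 3 (adjusted p = 0.088 and 0.15) and Olfr1431 without citrus replicate 2 (adjusted p = 0.057). In neither stimulus did 14 receptors pass, with differences from −1.18 to 1.08 in vehicle and from −1.17 to 0.75 in citrus.

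**Figure D1:**
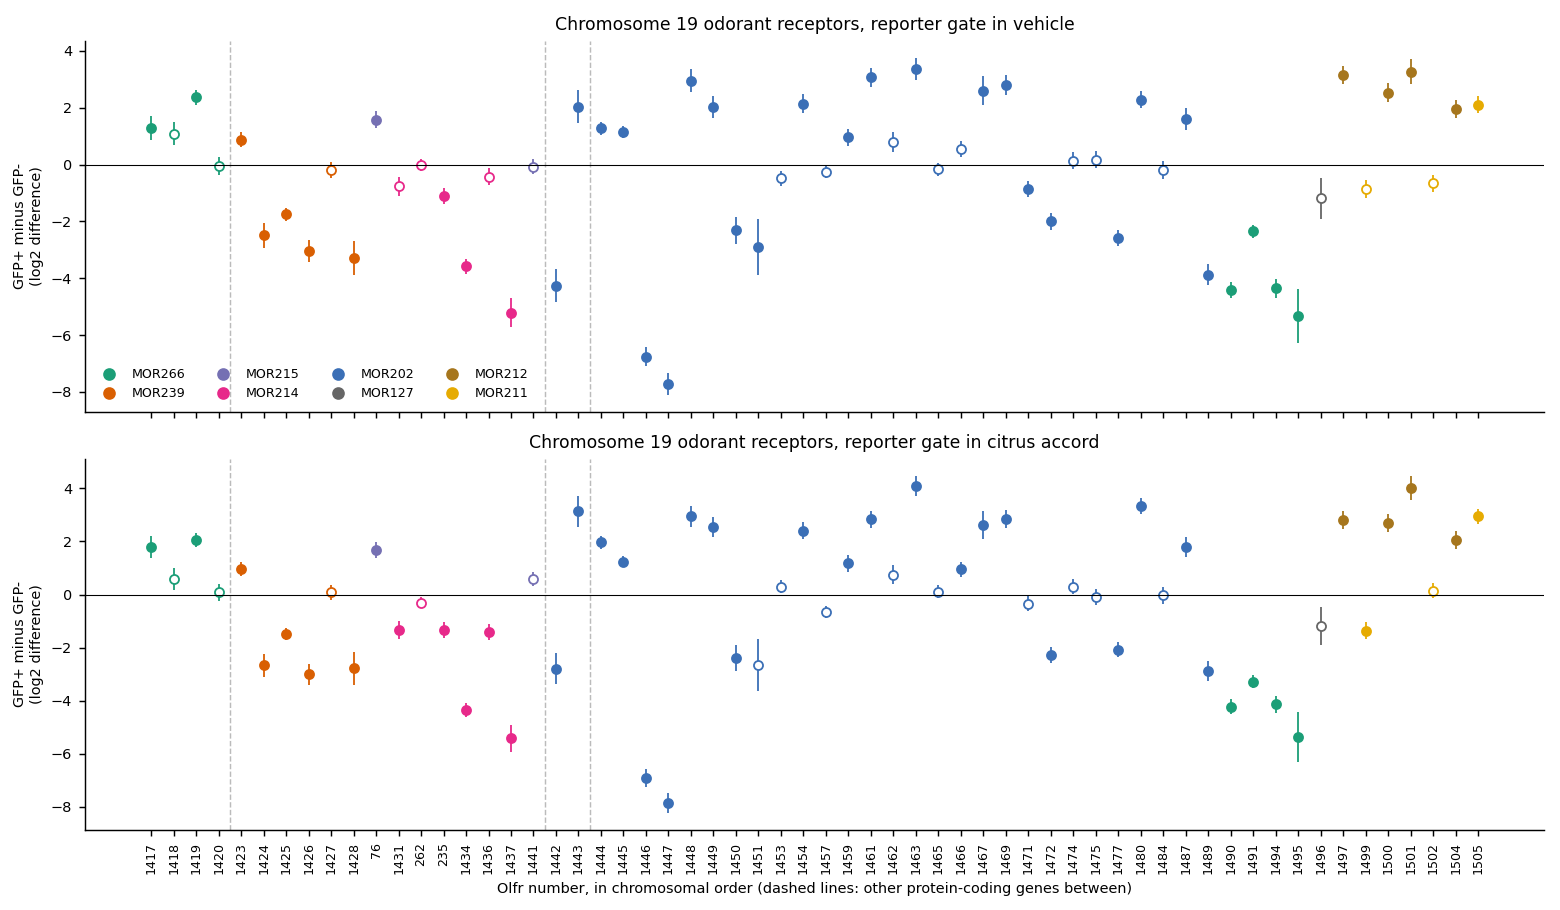
GFP+ minus GFP- log2 difference (points, with standard error of the limma model as bars) of the 60 receptors in chromosomal order, in vehicle (top) and citrus accord (bottom), coloured by subfamily. Filled points passed the threshold, and dashed lines mark other protein-coding genes between receptors. Both panels run from about the same lowest receptor, Olfr1447 at −7.72 and −7.84, to the same highest, Olfr1463 at 3.37 and 4.09.

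The 2 widest differences were in receptors with signal above background in the GFP- gate alone. Olfr1447, a MOR202 receptor, read 5.12, 5.66, 5.08 and 5.56 on the vehicle GFP+ arrays and 13.22, 13.16, 13.39 and 12.51 on the GFP- arrays. In citrus it read 4.24, 6.53, 5.52 and 5.01 against 13.37, 13.04, 13.81 and 12.45. The gates did not overlap in either stimulus, and every GFP+ array was under background while every GFP- array was above it. The difference was −7.72 ± 0.38 (SE, adjusted p = 1.9e-10, limma) in vehicle and −7.84 ± 0.38 (adjusted p = 1.5e-10) in citrus. As a bound, Olfr1447 was at least 13.2-fold lower in GFP+ cells in vehicle and at least 18.4-fold lower in citrus.

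Its neighbour Olfr1446 repeated the pattern. It read 3.41, 5.15, 4.97 and 4.00 on the vehicle GFP+ arrays and 11.09, 11.26, 11.11 and 11.09 on the GFP- arrays, with citrus values of 4.75, 4.37, 4.37 and 3.32 against 11.20, 11.04, 11.52 and 10.68. Again no array of one gate reached the range of the other. Its differences were −6.76 ± 0.34 (limma adjusted p = 2.7e-10) and −6.91 ± 0.34 (adjusted p = 1.7e-10), or at least 3.46-fold and 4.43-fold lower. The MOR202 genes on either side of this pair went the other way: Olfr1445 was higher by 1.15 ± 0.21 and 1.23 ± 0.21, with both gates under background, and Olfr1448 by 2.95 ± 0.41 and 2.94 ± 0.41. For Olfr1445 the receptor-median centring took the call away in both stimuli, with adjusted p = 0.12 and 0.17.

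Olfr1448 was measured well in the positive gate. It read 10.50, 10.30, 10.16 and 10.35 on the vehicle GFP+ arrays and 8.77, 6.68, 7.14 and 6.90 on the GFP- arrays. The citrus values were 10.62, 10.62, 11.00 and 10.88 against 9.12, 7.25, 7.88 and 7.11. All GFP+ arrays were above background and above every GFP- array, and the adjusted p (limma) was 4.2e-05 in vehicle and 3.7e-05 in citrus. The vehicle difference was at least 2.07-fold.

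The MOR202 subfamily, with 30 of the 60 receptors, was divided by the gate: 13 were higher, 9 lower and 8 not called in vehicle, and 14, 7 and 9 in citrus. Its highest member was Olfr1463, whose MOR number carries the suffix P. Olfr1463 read 10.99, 9.79, 9.42 and 10.30 in vehicle GFP+ against 7.25, 6.31, 6.42 and 7.03 in GFP- cells, and 12.16, 10.44, 10.97 and 10.14 against 7.46, 6.66, 6.57 and 6.67 in citrus. The gates did not overlap, with differences of 3.37 ± 0.39 (limma adjusted p = 5.6e-06) and 4.09 ± 0.39 (adjusted p = 4.7e-07), or at least 1.80-fold and 3.95-fold. Olfr1461 was higher by 3.06 ± 0.32 and 2.83 ± 0.32, Olfr1469 by 2.80 ± 0.34 and 2.84 ± 0.34, and Olfr1480 by 2.28 ± 0.29 and 3.33 ± 0.29. Of these 3, Olfr1469 was under background on all 16 arrays, Olfr1461 was above it on 1 array and Olfr1480 on 1. Olfr1467 was above background on every GFP+ array, from 9.85 to 12.34, and was higher by 2.60 ± 0.52 and 2.61 ± 0.52. Among the lower ones, Olfr1489 differed by −3.87 ± 0.38 and −2.87 ± 0.38, and Olfr1477 by −2.60 ± 0.28 and −2.07 ± 0.28. Olfr1477 was under background on all 16 arrays and Olfr1489 on all but 1 citrus GFP- array, so these sizes are not measured against a level above background, and with low values set to background the citrus difference of Olfr1489 was 0.00.

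**Figure D2:**
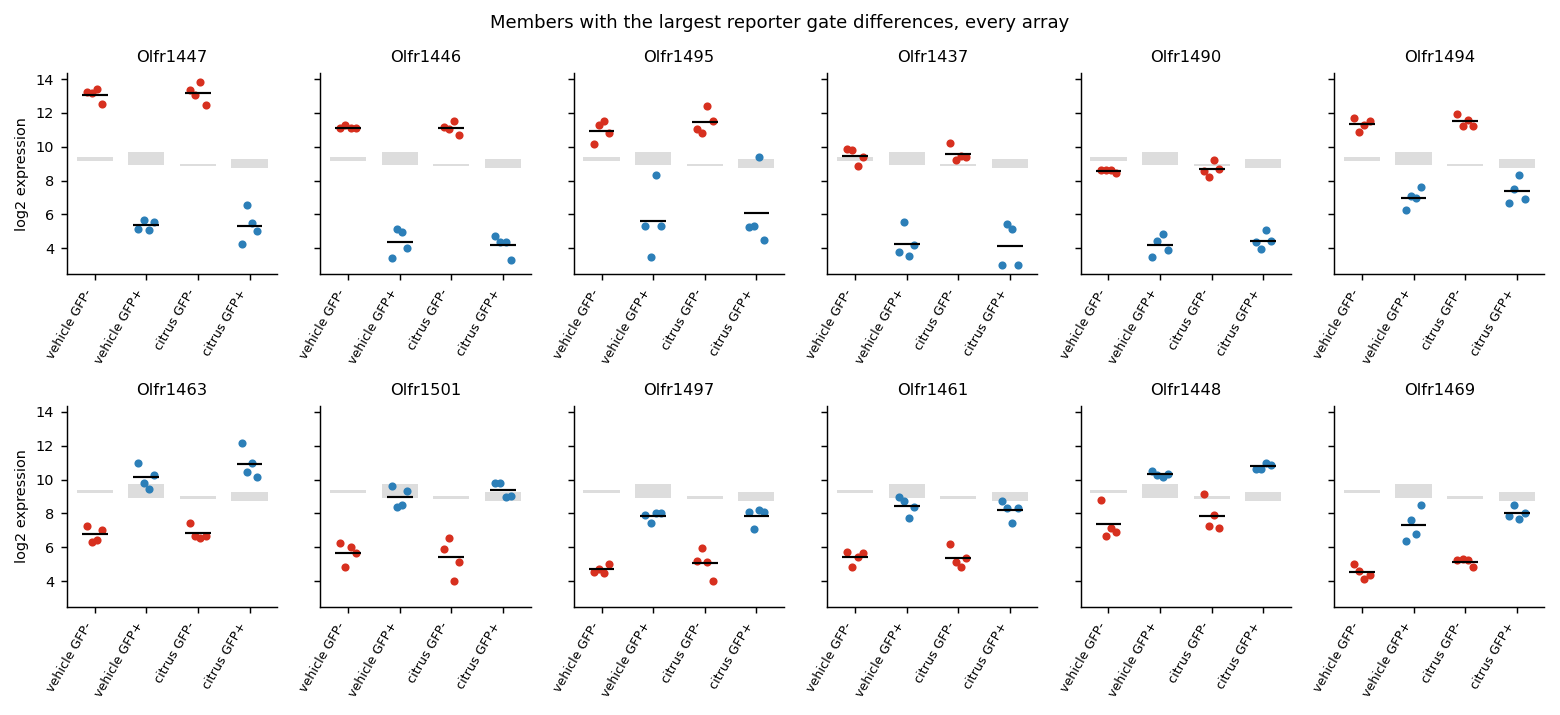
Log2 expression on every array (points) with group means (lines) for the 12 receptors with the largest vehicle gate differences past the threshold, 6 lower (top) and 6 higher (bottom) in GFP+ cells. Grey bands give the range of the background level over the 4 arrays of a group. Olfr1447 and Olfr1446 are above the band in GFP- and below it in GFP+ cells, while Olfr1461, Olfr1497 and Olfr1469 stay under or within it in all groups.

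The small run of Olfr1442 and Olfr1443, MOR202 genes flanked by Glyat and Keg1, held one receptor of each direction. Olfr1442 read 3.54, 3.40, 4.34 and 3.93 in vehicle GFP+ against 7.80, 7.25, 8.26 and 9.0 in GFP- cells, a difference of −4.27 ± 0.58 (limma adjusted p = 2.9e-05). Olfr1443 read 8.95, 7.48, 6.58 and 8.97 against 6.55, 6.09, 5.34 and 5.85, a difference of 2.04 ± 0.59 (adjusted p = 0.021). In both receptors the gates did not overlap, but all Olfr1442 arrays were under background and only 1 of these Olfr1443 arrays was above it. In citrus the differences were −2.79 ± 0.58 (adjusted p = 0.0017) and 3.13 ± 0.59 (adjusted p = 0.00077). The vehicle call of Olfr1443 was lost without vehicle replicate 1, 2 or 4, with adjusted p = 0.062, 0.054 and 0.14.

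The MOR266 subfamily lies in 2 separate runs, and its members differed by run. Olfr1417 to Olfr1420, between Stx3 and Patl1, gave differences from −0.04 to 2.36 in vehicle and from 0.09 to 2.05 in citrus, with Olfr1417 and Olfr1419 higher and none lower. For Olfr1417 the vehicle call (1.27 ± 0.42, adjusted p = 0.042, limma) was lost without vehicle replicate 1, 3 or 4 or citrus replicate 2 or 4, with adjusted p from 0.057 to 0.17. The members of the long run, Olfr1490, Olfr1491, Olfr1494 and Olfr1495, were all lower, from −5.32 to −2.35 in vehicle and from −5.35 to −3.28 in citrus. Olfr1419, the highest member between Stx3 and Patl1, and Olfr1491, the least lowered of the long run, were under background on every array. Those ends of the ranges are thus not measured against a level above background. With a common floor from antigenomic probes Olfr1491 lost its vehicle call and kept its citrus call. These run groupings were chosen with the values known and carry no test of their own.

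Of these, Olfr1494 had every GFP- array above background. It read 6.24, 7.11, 6.99 and 7.61 in vehicle GFP+ against 11.68, 10.87, 11.31 and 11.54 in GFP- cells, and 6.70, 7.48, 8.36 and 6.89 against 11.96, 11.24, 11.56 and 11.24 in citrus. The gates stayed apart, with differences of −4.36 ± 0.33 (limma adjusted p = 3.2e-08) and −4.14 ± 0.33 (adjusted p = 5.2e-08), or at least 4.01-fold and 5.80-fold lower. Olfr1495 varied more between arrays: it read 5.30, 3.51, 8.33 and 5.33 against 10.16, 11.26, 11.51 and 10.81 in vehicle, and 5.24, 5.30, 9.40 and 4.46 against 11.05, 10.81, 12.44 and 11.53 in citrus. The gates still did not overlap, but replicate 3 of the GFP+ arrays was the highest in both stimuli, and the standard error was 0.94 (differences −5.32 and −5.35, limma adjusted p = 0.00047 and 0.00037). Olfr1490 differed by −4.41 ± 0.28 and −4.22 ± 0.28, with 1 of its 16 arrays above background.

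In the MOR239 subfamily 4 of 6 receptors were lower, 1 was higher and 1 was not called, in both stimuli alike. These include the receptors with signal above background on every array, where a change in level is measured on both sides. Olfr1428 read 9.44, 12.27, 10.30 and 11.77 in vehicle GFP+ against 14.44, 14.63, 14.21 and 13.68 in GFP- cells, and 9.92, 13.12, 12.14 and 10.60 against 13.89, 13.96, 14.59 and 14.44 in citrus. Every GFP+ array was below every GFP- array, with differences of −3.29 ± 0.61 (limma adjusted p = 0.00075) and −2.78 ± 0.61 (adjusted p = 0.0029). Olfr1425 read 10.70, 11.43, 11.62 and 11.28 against 13.31, 12.78, 13.28 and 12.67 in vehicle and differed by −1.75 ± 0.23 (limma adjusted p = 2.4e-05), and by −1.48 ± 0.23 (adjusted p = 0.00012) in citrus. Olfr1426 was at least 2.91-fold and 4.22-fold lower. Olfr1423 was the only higher member, by 0.87 ± 0.26 (adjusted p = 0.027) and 0.96 ± 0.26 (adjusted p = 0.016), and neither call held when the arrays were centred on mature OSN markers, with adjusted p = 0.21 and 0.16. Without vehicle replicate 1, 3 or 4 its vehicle call was lost (adjusted p = 0.051, 0.094 and 0.18), and without citrus replicate 1, 3 or 4 its citrus call (adjusted p = 0.073, 0.066 and 0.14). Olfr1427, next to Olfr1428 and as well measured, differed by −0.19 ± 0.27 and 0.08 ± 0.27.

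MOR214, with 6 receptors, had 0 higher and 3 lower in vehicle, and 0 higher and 5 lower in citrus. Olfr1437 read 3.78, 5.54, 3.52 and 4.22 in vehicle GFP+ against 9.88, 9.79, 8.85 and 9.37 in GFP- cells, and 3.00, 5.45, 5.11 and 3.03 against 10.20, 9.22, 9.44 and 9.40 in citrus. The gates did not overlap, with differences of −5.21 ± 0.52 (limma adjusted p = 8.9e-07) and −5.42 ± 0.52 (adjusted p = 4.6e-07), although the bound was only at least 1.09-fold and 1.52-fold. Olfr1434 differed by −3.58 ± 0.26 (limma adjusted p = 2e-08) and −4.36 ± 0.26 (adjusted p = 1.7e-09). It was under background on every array but 1 citrus GFP- array, and with low values set to background its citrus difference was −0.01 (adjusted p = 0.96). Olfr235, above background throughout, differed by −1.10 ± 0.29 and −1.34 ± 0.29, and its vehicle call was lost without vehicle replicate 1, 2 or 3, with adjusted p = 0.068, 0.051 and 0.057.

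The end of the long run held the only subfamily of the 8 in which all members were higher. All 4 MOR212 receptors, Olfr1497, Olfr1500, Olfr1501 and Olfr1504, passed in both stimuli, by 1.95 to 3.27 in vehicle and 2.06 to 4.01 in citrus. Much of this signal was near background: Olfr1497 and Olfr1504 were under it on all 16 arrays, and Olfr1500 and Olfr1501 were above it on 1 vehicle GFP+ array each and on 2 and 3 citrus GFP+ arrays. With each array's low values set to background, the vehicle calls of Olfr1500 and Olfr1501 were lost (adjusted p = 0.71 for both, limma) and the citrus call of Olfr1500 too (adjusted p = 0.92), while that of Olfr1501 held (adjusted p = 0.043). With 1 common floor from antigenomic probes Olfr1504 lost both calls (adjusted p = 0.81 and 0.56). Olfr1501 read 9.65, 8.37, 8.50 and 9.33 in vehicle GFP+ against 6.25, 4.84, 6.0 and 5.66 in GFP- cells, and 9.79, 9.80, 8.97 and 9.04 against 5.90, 6.55, 4.01 and 5.11 in citrus. The gates did not overlap, and the citrus difference was at least 1.37-fold. Interleaved with them are the MOR211 genes, of which Olfr1505 was higher by 2.11 ± 0.29 and 2.95 ± 0.29. Olfr1505 too was under background on all 16 arrays and lost both calls with the common antigenomic floor. Olfr1502 differed by −0.66 ± 0.29 and 0.15 ± 0.29 without passing, and Olfr1499 was lower only in citrus. The MOR215 receptor Olfr76 was higher by 1.57 ± 0.30 and 1.68 ± 0.30, while its relative Olfr1441 and the single MOR127 receptor Olfr1496 did not pass.

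Adjacent receptors were found in both the same and opposite directions. Among the 56 pairs of adjacent receptors within a run, both members were called in 25 pairs in vehicle, 16 in the same and 9 in opposite directions (64 percent the same), against 48.9 percent over all 1770 pairs of members. In citrus 17 of 28 such pairs had the same direction, or 60.7 percent. The median absolute gap between adjacent receptors was 2.40 log2 in vehicle and 2.10 in citrus, against 2.48 and 2.68 over all pairs. The longest stretch of one direction was the 5 lower receptors from Olfr1489 to Olfr1495, in both stimuli. These counts are a description, since pairs share members.

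**Figure D3:**
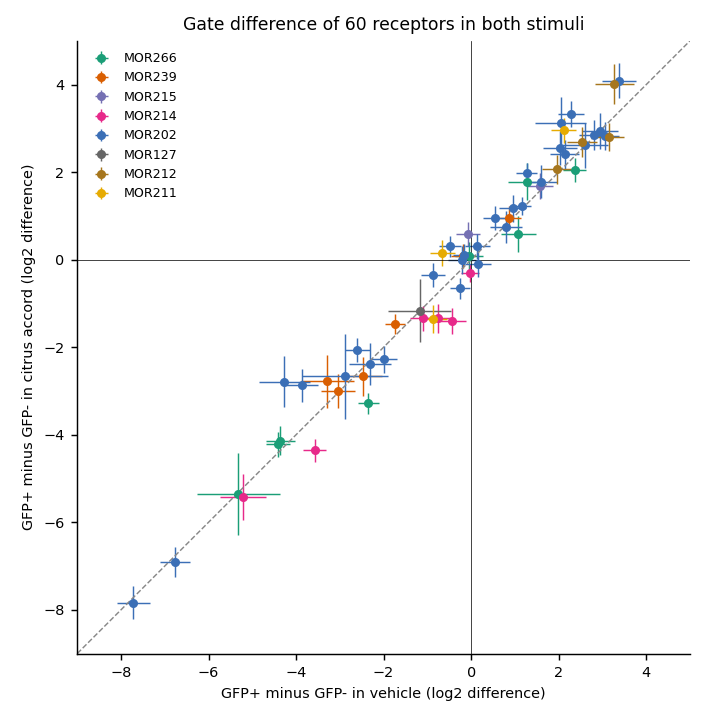
Gate difference of each of the 60 receptors in vehicle (horizontal) and citrus accord (vertical), in log2 units with standard errors, coloured by subfamily, with the line of equality dashed. The points lie along the line from Olfr1447 at −7.72 and −7.84 to Olfr1463 at 3.37 and 4.09, with r = 0.984.

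The gate difference of a receptor was repeated in a separate set of arrays. Across the 60 receptors the gate differences of vehicle and citrus correlated at r = 0.984 (description only, n = 60 receptors, which share the platform and the normalization), against 0.975 over the 1019 other odorant receptors. Without regard to sign, the median gate difference of the members was 2.01 in vehicle and 2.07 in citrus, and that of the other receptors 1.46 and 1.60. The median absolute change of the gate difference between stimuli was 0.27 for the members and 0.33 for the other receptors.

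The second question was whether citrus accord changed any of these receptors. In GFP+ cells 0 of the 60 passed, where 0.0204 percent of all probe sets did, and 5 had an unadjusted p under 0.05, where 4.06 percent of all probe sets had. The differences lay between −0.77 and 1.16 log2. The median half-width of the 95 percent intervals was 0.68, and for 32 of the 60 the interval lay wholly within 1 log2 unit of 0. For the remaining receptors the interval reached past 1 log2 unit, so a change of that size is not settled by these arrays. Some of the 32, such as Olfr262 and Olfr1441, were under background on all compared arrays. There a narrow interval bounds the signal and does not settle a change of the mRNA. Setting each array's low values to its own background produced 38 calls, of which 33 were receptors with all compared arrays at that floor, which was 8.90 to 9.71 in vehicle and 8.75 to 9.27 in citrus GFP+ arrays. Of all 19572 probe sets it called 147 higher and 13211 lower, and of the 1019 other odorant receptors 35 and 519. With 1 common floor the count of members called was 0.

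The 5 receptors with the smallest p in GFP+ cells are given with their values. Olfr1457 read 3.94, 4.33, 3.44 and 3.48 in vehicle and 3.41, 3.05, 2.80 and 3.10 in citrus, a difference of −0.71 ± 0.23 (limma adjusted p = 1). Olfr1434 read 4.29, 4.41, 4.75 and 5.26 against 3.66, 4.00, 4.03 and 3.93, a difference of −0.77 ± 0.26 (limma adjusted p = 1). The arrays of both stimuli did not overlap for either, with an exact permutation p of 0.0286, the lowest possible over the 70 even splits of 8 arrays, but all lay under background. Olfr1477, Olfr1436 and Olfr1489 differed by 0.66 ± 0.28, −0.67 ± 0.30 and 0.84 ± 0.38, also under background in both groups. Among receptors above background, Olfr1448 did not overlap either (10.16 to 10.50 against 10.62 to 11.00), with a difference of 0.46 ± 0.41 (limma adjusted p = 1). Olfr1463 differed by 0.80 ± 0.39 with overlapping arrays.

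In GFP- cells 0 of the 60 passed as well, where 0.0153 percent of all probe sets did, and 5 had an unadjusted p under 0.05, where 5.88 percent of all had. Olfr1491 had the smallest p of them: it read 5.79, 5.33, 6.22 and 6.37 in vehicle and 6.91, 6.67, 7.49 and 6.63 in citrus. The arrays did not overlap, and the difference was 1.00 ± 0.24 (limma adjusted p = 0.52), with all values under background. Olfr1505 read 5.04, 4.90, 5.39 and 5.14 against 4.49, 4.26, 3.62 and 4.16, a difference of −0.98 ± 0.29 (limma adjusted p = 0.77). Olfr1502, Olfr1465 and Olfr1453 differed by −0.81 ± 0.29, −0.56 ± 0.24 and −0.56 ± 0.25 without passing. Like Olfr1505, they were under background on all compared arrays. For 37 of the 60 the interval lay wholly within 1 log2 unit of 0. Olfr262 and Olfr1441, under background on all compared arrays, were again among them, and the same limit applies.

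**Figure D4:**
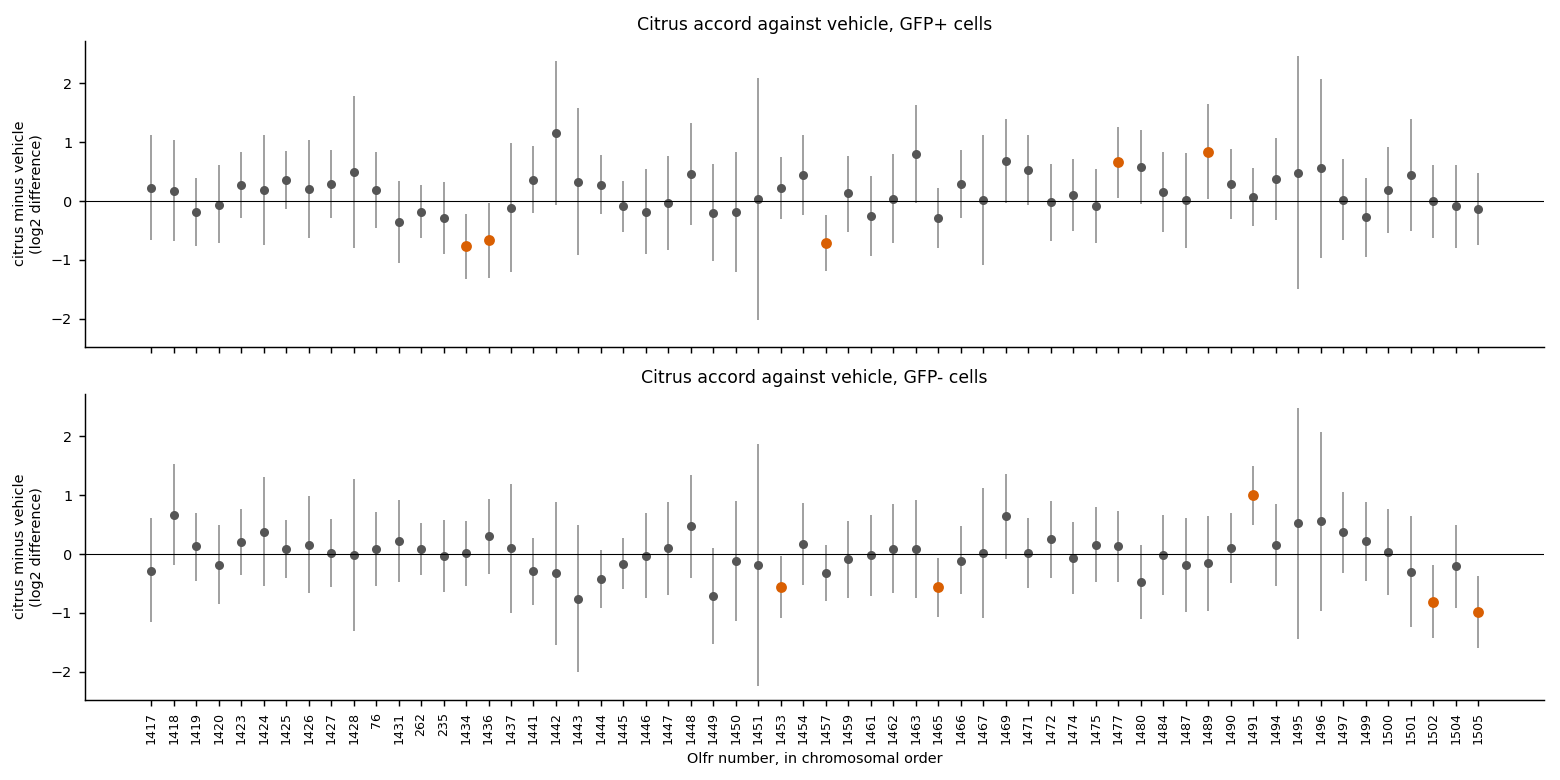
Citrus minus vehicle log2 difference (points) with 95 percent intervals (lines) of the 60 receptors in chromosomal order, in GFP+ (top) and GFP- cells (bottom). Orange points had an unadjusted limma p under 0.05, 5 in each gate, and 0 passed after adjustment. The points lie between −0.77 and 1.16 in GFP+ cells and between −0.98 and 1.00 in GFP- cells.

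The assay's own readout is the change of the gate difference with odorant. Of the 60 receptors 0 passed, as did 0 percent of all probe sets, and 4 had an unadjusted p under 0.05, where 3.69 percent of all had. The changes ran from −0.96 to 1.48, with a median interval half-width of 0.97, so for 5 receptors only did the interval lie within 1 log2 unit of 0. Of these 5, Olfr262, Olfr1445 and Olfr1465 were under background on all arrays. The 4 with an unadjusted p under 0.05 were Olfr1491 at −0.93 ± 0.34, Olfr1480 at 1.05 ± 0.42, Olfr1436 at −0.96 ± 0.42 and Olfr1453 at 0.78 ± 0.35, each with a limma adjusted p of 1. The largest change, that of Olfr1442, was 1.48 ± 0.82 (limma adjusted p = 1), and its citrus GFP+ arrays were spread, at 7.09, 3.96, 3.65 and 5.15. Olfr1491, Olfr1436, Olfr1453 and Olfr1442 were under background on all 16 arrays, and Olfr1480 was above it on 1 citrus GFP+ array only.

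Genes that act with the receptors were read from lists. Of 18 measured genes of receptor trafficking and signalling, 4 were higher and 1 lower in GFP+ cells in vehicle, and 6 and 1 in citrus. The 4 were Ano2, Pde1c, Cnga2 and Rtp2, all of them also on the mature OSN list. Grk3 was the lower gene in both stimuli. The chaperone gene Rtp1, the G protein subunit gene Gnal and the cyclase gene Adcy3 did not pass. Of 18 genes of receptor choice, 0 were higher and 2 lower in each stimulus, Lbr and Nfia in vehicle and Lbr and Cbx5 in citrus. The transcription factor genes Lhx2 and Ebf1 and the demethylase gene Kdm1a did not pass. The Ms4a genes of the same chromosome, which encode membrane proteins of blood cells and of the necklace neurons of the olfactory system, had 1 of 18 higher and 8 lower in vehicle, and 0 and 9 in citrus, with medians of −1.11 and −1.28. Of all probe sets 9.05 percent were higher and 9.97 percent lower in vehicle, and 7.44 and 10.8 percent in citrus. The lower receptor choice genes were near that share, so their count is not read as a trait of the list. In the 3 comparisons of citrus with vehicle 0 genes of these lists passed, where 0.0204 percent (GFP+ cells), 0.0153 percent (GFP- cells) and 0 percent (change of the gate difference) of all probe sets did.

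The sequence before the gene was compared for pairs of receptors that moved together or apart. RefSeq gene starts (build GRCm38.p6) gave a window of 250 bases before to 50 after the start for 57 of the 60 receptors. Of these, 49 start at the ATG, so the window precedes the coding sequence and not a transcription start, while 8 start further upstream. The 250 bases before the start of 4 of those 8 are printed 5′ to 3′ along the gene, since they include a pair of MOR214 receptors that were both lower in GFP+ cells and the adjacent MOR202 receptors of opposite direction. They are Olfr1434 (chr19:12279604-12279853, plus strand), Olfr1437 (chr19:12325067-12325316, minus strand), Olfr1442 (chr19:12673929-12674178, plus strand) and Olfr1443 (chr19:12677916-12678165, plus strand). Capitals mark matches to TAATTA, a homeodomain motif, and to an EBF-like core of CCC, any 2 bases and GGG, both of which read the same on either strand.
Olfr1434: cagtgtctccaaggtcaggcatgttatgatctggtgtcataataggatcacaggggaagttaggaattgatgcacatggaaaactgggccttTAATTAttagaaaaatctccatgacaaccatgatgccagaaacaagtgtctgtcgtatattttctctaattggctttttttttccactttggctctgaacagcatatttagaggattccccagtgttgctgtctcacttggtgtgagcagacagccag
Olfr1437: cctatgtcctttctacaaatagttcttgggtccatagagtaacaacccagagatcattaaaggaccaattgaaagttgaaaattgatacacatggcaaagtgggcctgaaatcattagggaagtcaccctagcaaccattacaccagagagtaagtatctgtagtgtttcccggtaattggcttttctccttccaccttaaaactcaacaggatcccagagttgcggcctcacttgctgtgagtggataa
Olfr1442: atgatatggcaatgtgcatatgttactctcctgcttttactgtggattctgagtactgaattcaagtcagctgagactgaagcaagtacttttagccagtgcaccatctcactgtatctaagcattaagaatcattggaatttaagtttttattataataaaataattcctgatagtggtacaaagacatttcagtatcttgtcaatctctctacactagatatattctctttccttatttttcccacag
Olfr1443: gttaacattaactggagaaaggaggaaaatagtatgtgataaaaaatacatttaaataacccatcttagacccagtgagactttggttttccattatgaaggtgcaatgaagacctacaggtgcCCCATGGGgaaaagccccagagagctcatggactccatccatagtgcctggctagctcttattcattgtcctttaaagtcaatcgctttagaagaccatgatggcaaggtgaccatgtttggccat

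The windows of Olfr1434 and Olfr1437 were the most alike of the 28 pairs among the 8, with 63.6 percent identity over 272 aligned columns, against 43.9 to 53.7 percent in the other 27 pairs. Both genes were lower in GFP+ cells in both stimuli. The next most alike pair, Olfr1419 and Olfr1426 at 53.7 percent, went opposite ways, Olfr1419 higher and Olfr1426 lower. Whether window likeness goes with direction was not tested. The windows of Olfr1442 and Olfr1443 were 48.1 percent identical. Olfr1434 holds 1 TAATTA match, and that of Olfr1437 begins 3 bases before the start and so runs past the printed end. TAATTA was present in 13 of 57 member windows (22.8 percent), in 18.4 percent of 886 windows of other odorant receptors and in 5.29 percent of all 32851 windows. By vehicle call, it was in 4 of 20 higher, 5 of 19 lower and 4 of 18 uncalled receptors. The EBF-like core was in 1 member window, that of Olfr1443 (1.75 percent), against 3.16 percent of other odorant receptors and 13.7 percent of all windows. A match is a run of letters in the window and not a shown binding site.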

How the data were processed

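RNA of sorted cells was hybridised to 16 Clariom S mouse arrays. The deposited values, 28846 probe sets in all, are on a log2 scale and were summarised per gene with SST-RMA, per the labels. The submitters' processing notes name Affymetrix Expression Console; neither its version nor a genome build is given in the sources used here. SST-RMA may widen differences, which therefore need not be log2 ratios of mRNA amounts. Each column matched 1 array, and columns of other samples numbered 0. Symbols came from the platform annotation, and 6640 control probe sets were left out of the tests.

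The tests used limma 3.58.1 (R 4.3.3), fitting group means with a spread per probe set shared by all 16 arrays, empirical Bayes, two-sided, with Benjamini-Hochberg adjustment over 19572 probe sets at 0.05. Single receptors were also compared by exact permutation, 4 arrays against 4. Background came from 5222 negative-control probes, and 23 antigenomic probe sets were an alternative. Precision is limited by 4 arrays per group. Arrays of a gate are separate pools of 3 mice per the labels, so p-values measure the spread between pools. GFP+ and GFP- arrays of one number were taken as one pool, since 24 mice make 8 pools; their deviations from the group means correlated at 0.075 to 0.275 over probe sets. The fit reported has no pool term. One code marks all arrays in the labels, and a batch was not testable.

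The members, lists and tests were chosen with earlier results of these data known. Receptors given array by array were, by rule, up to 6 of the largest gate differences in each direction, the 5 smallest p of each citrus comparison, and the highest and lowest means; others, such as Olfr1442, Olfr1445 and Olfr1467, were named after their values were seen. Chromosomal order, neighbouring genes and MOR numbers came from the RefSeq gene table, and windows from RefSeq (GRCm38.p6). Near copies were to be judged by protein identity, which was not analysed here, so probes shared between close relatives were not assessed. Plots used Python 3.11.15 and matplotlib 3.10.9.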

Additional observations from a re-analysis of the deposited data

Results flagged for a closer look

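In 124 groups of 4 arrays, those of 31 receptors chosen by rule, 1 array stood apart from the other 3 by Dixon's criterion in 7 groups. Chance gives about 1 in 20 such groups. Olfr1463 read 7.46 on replicate 1 of citrus GFP- cells, with the others between 6.57 and 6.67. Olfr1497 read 7.06 on replicate 2 of citrus GFP+ cells, with the others between 8.08 and 8.21. Olfr1469 read 4.81 on replicate 4 of citrus GFP- cells, with the others between 5.23 and 5.31. Olfr1446 read 11.26 on replicate 2 of vehicle GFP- cells, with the others between 11.09 and 11.11. Olfr1495 read 9.40 on replicate 3 of citrus GFP+ cells, with the others between 4.46 and 5.30. Olfr1443 read 6.20 on replicate 3 of citrus GFP+ cells, with the others between 8.77 and 9.29. Olfr1465 read 3.77 on replicate 2 of vehicle GFP+ cells, with the others between 3.01 and 3.03. The gate calls of Olfr1463, Olfr1497, Olfr1469, Olfr1446 and Olfr1495 were kept in every fit that left out 1 pool, as was the citrus call of Olfr1443.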

How the results depend on the processing

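The count of receptors called between the gates depended on how low signal was treated. In vehicle it was 42, and it became 18 when probe sets above background on at least 4 arrays were tested (21 members remained), 14 with each array's low values set to background, and, in alternatives chosen after seeing the data, 9 and 26 with 1 common floor from negative-control and antigenomic probes. Over all probe sets, 1771 higher and 1952 lower became 1306 and 706 of 6364, 787 and 488, 552 and 345, and 1278 and 947. In citrus 44 became 17, 16 and 10, and 30 with the antigenomic floor. There 1457 higher and 2112 lower among all probe sets became 907 and 657 of 6364, 704 and 561, 406 and 364, and 967 and 1018. In citrus against vehicle in GFP+ cells 0 became 38 with per-array floors, of which 33 had all compared arrays at the floor. Those floors called 147 of all 19572 probe sets higher and 13211 lower. Under that floor the citrus gate difference of Olfr1489 turned to 0.00. Receptors above background numbered 19, or 52 over the negative-control median and 46 over the antigenomic level; windows with a motif numbered 13, or 57 with the shorter core TAAT. Leaving out 1 pool gave 35 to 42 calls in vehicle and 42 to 45 in citrus. With the pool as a replicate block 42 were called in vehicle and 45 in citrus, Olfr1471 (adjusted p = 0.077) alone losing its call, and 0 in the other 3 comparisons. Same-numbered GFP+ arrays of the 2 stimuli, which are different mice, correlated at 0.07 to 0.33 across probe sets, and GFP- arrays at −0.01 to 0.35, so by the criterion set over all probe sets (above 0.1 in every pair) the numbers were not taken as pairs. Over the 60 receptors alone the GFP+ values were higher, at 0.31 to 0.67. Same-numbered GFP+ and GFP- arrays of a stimulus did not meet that criterion in every pair either, at 0.075 to 0.275 over probe sets. Over the 60 receptors they gave −0.095 to 0.452. Those arrays were taken as 1 pool from the count of mice alone. A block by number, chosen after seeing the data, called 0 in each comparison of citrus with vehicle, while receptors with an unadjusted p under 0.05 went from 5 to 11 in GFP+ cells, from 5 to 12 in GFP- cells and from 4 to 11 for the change of the gate difference. Over all 19572 probe sets the same counts went from 794 to 1127, from 1151 to 1271 and from 722 to 1265. The other fits moved no count of calls by over 1.5 times. Signal close to background limits 27 receptors that exceeded it on no array.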

Other observations

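Some receptors varied between pools along the replicate number in both stimuli, although the vehicle and citrus pools are different mice. They were named after their values were seen, and the reason was not tested. Olfr1495 read 8.33 and 9.40 on replicate 3 of the vehicle and citrus GFP+ arrays, with the other arrays between 3.51 and 5.33. Olfr1451, a MOR202 receptor, read 8.36 and 9.65 on the same arrays, with the others between 3.66 and 6.59. Olfr1428 was lowest on replicate 1 (9.44 and 9.92) and highest on replicate 2 (12.27 and 13.12) of the GFP+ arrays, and Olfr1467 likewise, with 10.27 and 9.85 on replicate 1 and 12.01 and 12.34 on replicate 2. In GFP- cells Olfr1448 was highest on replicate 1 of both stimuli (8.77 and 9.12). Across the 60 receptors, deviations from the group mean on same-numbered GFP+ arrays of the 2 stimuli correlated at 0.67, 0.54, 0.64 and 0.31, and those of different numbers at −0.48 to 0.45. Over the other odorant receptors the same-numbered values were 0.65, 0.38, 0.70 and 0.31. On same-numbered GFP- arrays the 60 receptors gave 0.44, −0.01, 0.03 and 0.07, so in that gate the likeness was seen mainly for replicate 1.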
